A study of Mus musculus with 8 samples.

Results

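The aminoacyl-tRNA synthetase genes of irradiated mouse lung carcinoma cells are described here. They were taken by gene symbol, as a fixed list of 34 genes out of 13409 genes with a probe above background, and all 34 were on the array and above background. Of these, 20 encode the enzymes of the cytosol and 14 those of mitochondria, whose symbols end in 2. The cells were LLC1, a line of Lewis lung carcinoma from a C57BL/6 mouse, cultured and harvested 4 h after X-rays. Irradiated cells (Cy5) were set against untreated LLC1 cells (Cy3) on each of 8 dual-colour arrays. There were 3 arrays for 2 Gy given at once, 2 arrays for 10 Gy given at once, and 3 arrays for 5 fractions of 2 Gy, which total 10 Gy and are written 5x2 Gy. Replicate 3 of 10 Gy is not analysed here. The labels call the replicates biological. All groups come from 1 cell line in culture, and the spacing of the fractions is not given in the sources used here.

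Each synthetase joins 1 kind of amino acid to its tRNAs and so makes the substrate that the ribosome reads a codon with. Cytosolic and mitochondrial protein synthesis use separate sets of these enzymes, nearly all from separate nuclear genes, although Gars and Kars encode both forms of their enzyme. In mammals several cytosolic synthetases sit together in the multisynthetase complex, held by 3 scaffold proteins. When amino acids are short or protein folding is disturbed, the transcription factor ATF4 is made and binds a composite element that it shares with C/EBP proteins, and many cytosolic synthetase genes are among its known targets. Mitochondrial synthetase genes are not generally counted among them.

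Values are log2 ratios of irradiated over untreated cells, so that 1 is a doubling and -1 a halving, and a gene is said to have risen or fallen where its adjusted p was under 0.05 in limma (Benjamini-Hochberg over all genes). The dyes were not exchanged on any array, and any dye bias of a single gene therefore enters its ratio to untreated cells. The arrays lay on 2 slides of 4. All 2 Gy arrays shared slide 1 with 10 Gy replicate 1, and all 5x2 Gy arrays shared slide 2 with 10 Gy replicate 2. The 10 Gy arrays differed: the SD of the log2 ratio over all genes was 0.69 in replicate 1 and 0.46 in replicate 2, against 0.33 to 0.45 on the other arrays, and 39.5% of all genes had opposite signs on the pair. Results for 10 Gy are therefore given for each array. Only 10 Gy lay on both slides, so a fit with slide as a block takes its slide term from the 10 Gy pair alone. Such a fit carries the difference between these 2 arrays into the 2 Gy and 5x2 Gy values. It cannot tell a slide effect from a difference between the 10 Gy replicates. Of the markers of LLC1's origin, the keratins Krt8 and Krt18 and the mesenchymal Vim were above background in untreated cells on all 8 arrays. The mesenchymal Col1a1 was above on 7 arrays, whereas the mesenchymal Pdgfrb and the epithelial Epcam and Cdh1 were not on any. Of 4 leukocyte markers, Cd68 and Cd3e were above background in untreated cells on all 8 arrays, Lyz2 on 3 and the defining Ptprc on none. Of 3 endothelial markers, Cdh5 was above on 3 arrays, Tek on 1 and the defining Pecam1 on none. The bulk measurement cannot tell fewer cells of a state from less RNA per cell.

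RefSeq's promoter table (GRCm38.p6, 250 bases before to 50 after the gene start) held 26 of the 34 genes. It did not match Cars, Hars, Lars, Nars, Rars, Vars, Wars and Pars2. The core letters of the C/EBP-ATF element, TGATGNAA or TTNCATCA on the other strand, stood in 5 of the 26 promoters, against 3.97% of all 32851 promoters of the same length. The 5 genes were Aars, Gars, Iars, Tars and Yars, and all 5 belong to the 12 cytosolic genes listed as known ATF4 targets, of which 8 had a promoter in the table. The listed targets Eprs, Mars and Sars had a promoter there without the letters. None of 5 promoters of other cytosolic genes and none of 13 mitochondrial ones held the letters. The motif was chosen with earlier results of these data known, and a match is a description of the sequence only. The windows below are shown because these genes return in the comparison of the 10 Gy arrays. Capitals mark the motif, which begins 112 bases before the gene start and at base 10 of the gene in Aars. It begins 30 bases before the start in Gars and 15 in Tars, at base 8 of the gene in Iars and base 4 in Yars. The sequences run 5′ to 3′ on the strand of the gene.
Aars, chr8:111033700-111033747 (+): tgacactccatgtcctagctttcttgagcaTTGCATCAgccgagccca
Aars, chr8:111033821-111033868 (+): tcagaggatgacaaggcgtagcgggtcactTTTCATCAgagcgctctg
Gars, chr6:55037941-55037988 (+): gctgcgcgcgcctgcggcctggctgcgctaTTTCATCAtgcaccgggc
Iars, chr13:49682107-49682154 (+): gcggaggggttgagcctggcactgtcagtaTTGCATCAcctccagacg
Tars, chr15:11399656-11399703 (-): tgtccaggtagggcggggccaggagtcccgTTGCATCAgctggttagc
Yars, chr4:129189876-129189923 (+): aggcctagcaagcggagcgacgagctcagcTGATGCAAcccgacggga

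After 2 Gy, 4 of the 34 synthetase genes passed the test (11.8%), against 16.9% of all genes (8.99% higher and 7.94% lower). The mitochondrial glutamyl-tRNA synthetase gene Ears2 rose, and the cytosolic Farsb and Lars and the mitochondrial Yars2 fell. After a single 10 Gy dose, 9 passed (26.5%), against 28.2% of all genes (12.4% higher and 15.8% lower): Cars2 and Ears2 rose, and Dars, Farsb, Lars, Mars, Vars, Iars2 and Yars2 fell. After 5x2 Gy, 16 passed (47.1%), against 41.0% of all genes (17.6% higher and 23.4% lower). Of these, 7 rose (Qars, Wars, Cars2, Ears2, Fars2, Lars2 and Tars2) and 9 fell (Dars, Farsb, Hars, Lars, Mars, Vars, Mars2, Nars2 and Yars2). The shares are thus near those of the whole array in each regimen. Over the 3 regimens, 17 genes passed at least once, and 4 passed in all of them: Farsb, Lars, Ears2 and Yars2.

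These counts depended on single arrays, since all regimens share 1 estimate of the spread. After 2 Gy the count was 1, 0 and 0 without 2 Gy replicate 1, 2 or 3, among 7.03%, 3.65% and 3.04% of all genes. It was 13 without 10 Gy replicate 1 or without 10 Gy replicate 2 (40.1% of all genes), and 2 without any of the 5x2 Gy replicates in turn (10.8% to 12.6%). After 10 Gy it was 11 without replicate 1 and 18 without replicate 2 (35.1% and 45.3%), where the lone array is assumed to vary like those of the other regimens, and 0 where only the 10 Gy arrays were fitted (2.09%). After 5x2 Gy it was 9, 6 and 6 without 5x2 Gy replicate 1, 2 or 3 (24.0%, 23.1% and 22.4%), and 25 without either 10 Gy replicate (59.5%). With slide as a random block the counts were 0, 3 and 1 for 2 Gy, 10 Gy and 5x2 Gy, among 0.157%, 10.9% and 6.09% of all genes.

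**Figure D1:**
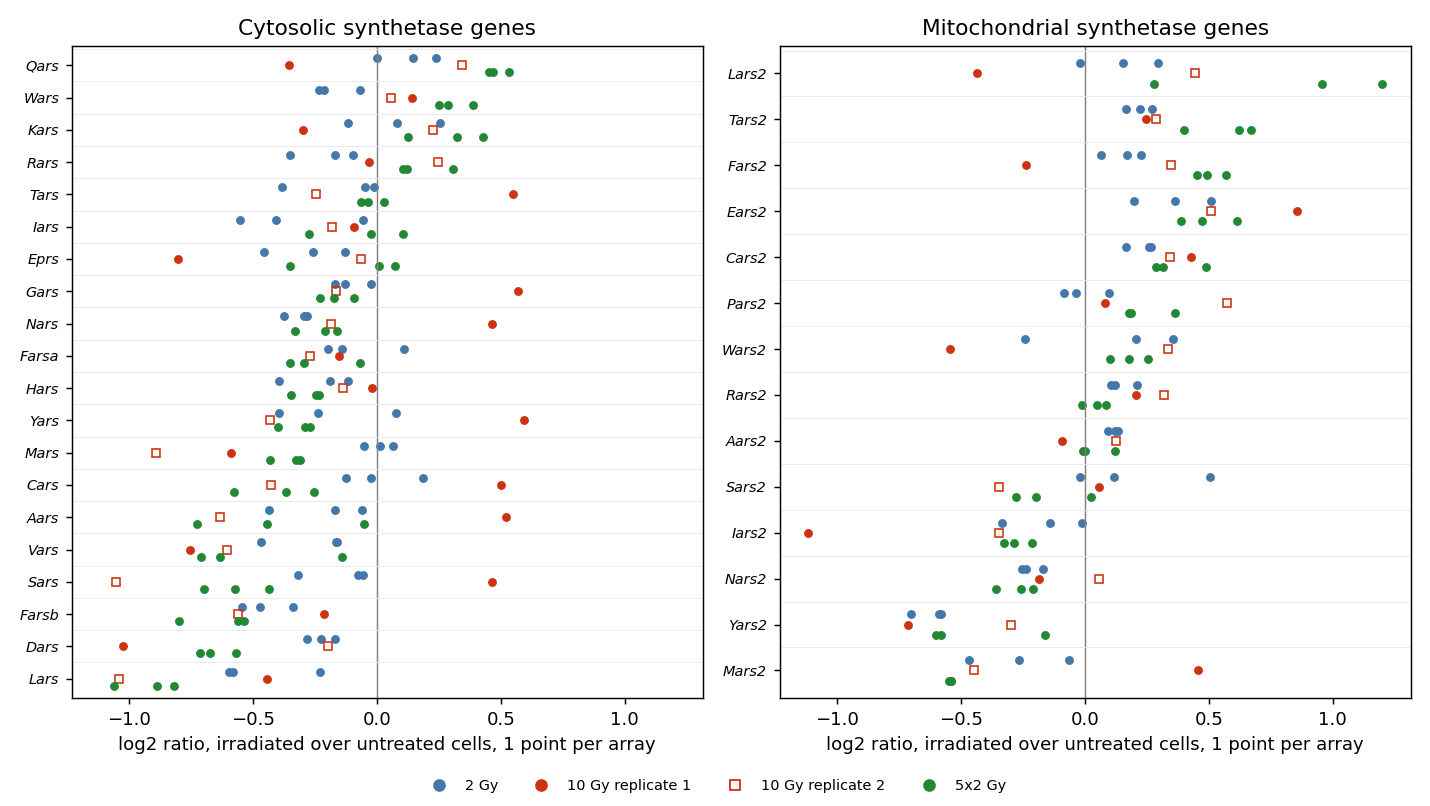
Log2 ratio of irradiated over untreated cells (horizontal axis) of the 20 cytosolic and 14 mitochondrial synthetase genes, 1 point per array, ordered by the 5x2 Gy mean; blue is 2 Gy, red 10 Gy (filled circle replicate 1, open square replicate 2) and green 5x2 Gy. Farsb, Lars, Dars, Vars and Hars lie below 0 on all 8 arrays among the cytosolic genes, and Ears2, Cars2 and Tars2 above 0 on all 8 among the mitochondrial ones.

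Among the cytosolic genes, Lars, the leucyl-tRNA synthetase of the multisynthetase complex and a leucine sensor upstream of mTORC1, had the lowest mean after 5x2 Gy. It was at -0.58, -0.23 and -0.60 on the 2 Gy arrays, -0.44 and -1.04 on the 10 Gy arrays and -0.89, -0.82 and -1.06 on the 5x2 Gy arrays. All 8 values lie below 0, and the 5x2 Gy arrays lie below the 2 Gy arrays without overlap. The mean was -0.47 ± 0.13 (SE) after 2 Gy (n = 3, limma adjusted p = 0.0349), -0.74 ± 0.16 after 10 Gy (n = 2, limma adjusted p = 0.00789) and -0.92 ± 0.13 after 5x2 Gy (n = 3, limma adjusted p = 0.000798), the last being 0.528 of the untreated level. The size, and after 2 Gy the sign, depended on the probe. Of 2 other Lars probes, 1 was at 0.25, -0.22 and -0.22 in the same order of regimens and the other at -0.46, -0.46 and -0.24. The 2 Gy call ended under 10 of 24 alternative settings and reversed under 1.

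Farsb encodes the beta subunit of phenylalanyl-tRNA synthetase, a tetramer of alpha and beta chains. Its 2 Gy arrays were at -0.34, -0.47 and -0.54, its 10 Gy arrays at -0.21 and -0.56 and its 5x2 Gy arrays at -0.56, -0.54 and -0.80. The regimens overlap, and no array was above -0.21. Farsb fell by 0.45 ± 0.10 after 2 Gy (limma adjusted p = 0.0177), by 0.39 ± 0.13 after 10 Gy (limma adjusted p = 0.0453) and by 0.63 ± 0.10 after 5x2 Gy (limma adjusted p = 0.00162). The 10 Gy call ended under 16 of 21 alternative settings, among them without replicate 2, at -0.21. Farsa, the gene of the alpha subunit, did not pass in any regimen, with means of -0.08 ± 0.10, -0.21 ± 0.12 and -0.24 ± 0.10. Its arrays were at -0.14, -0.20 and 0.11 after 2 Gy, -0.15 and -0.27 after 10 Gy and -0.07, -0.30 and -0.35 after 5x2 Gy. Thus 7 of the 8 arrays lay below 0 for the alpha subunit and all 8 for the beta subunit.

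Dars, the aspartyl-tRNA synthetase and a further member of the complex, was at -0.23, -0.28 and -0.17 after 2 Gy, at -1.03 and -0.20 after 10 Gy and at -0.57, -0.68 and -0.72 after 5x2 Gy. The 5x2 Gy arrays lie below the 2 Gy arrays, and the 10 Gy pair lies on both sides of them. Dars fell by 0.61 ± 0.17 after 10 Gy (limma adjusted p = 0.0243) and by 0.65 ± 0.14 after 5x2 Gy (limma adjusted p = 0.00508). A second probe gave -0.77 and -0.53. The 5x2 Gy fall passed under all 23 alternative settings. The 10 Gy fall did not pass without replicate 1, at -0.20.

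Mars, the methionyl-tRNA synthetase that charges both initiator and elongator tRNA, was near 0 after 2 Gy, at 0.06, 0.01 and -0.05. It was at -0.59 and -0.89 on the 10 Gy arrays and at -0.43, -0.33 and -0.31 on the 5x2 Gy arrays. On this brightest probe the 3 regimens do not overlap, with 10 Gy lowest. Mars fell by 0.74 ± 0.11 after 10 Gy (limma adjusted p = 0.00165) and by 0.36 ± 0.09 after 5x2 Gy (limma adjusted p = 0.0126). A second Mars probe was at 0.12, -0.47 and -0.36 after 2 Gy and at -0.41 and -0.73 after 10 Gy, which overlap. It gave -0.57 ± 0.16 after 10 Gy and -0.51 ± 0.13 after 5x2 Gy. The 5x2 Gy fall on the first probe did not pass with slide as a block (-0.21), with median centring (-0.31) or without any of the 5x2 Gy replicates in turn.

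Vars, the valyl-tRNA synthetase, fell by 0.68 ± 0.15 after 10 Gy (limma adjusted p = 0.01) and by 0.49 ± 0.12 after 5x2 Gy (limma adjusted p = 0.0116) on its brightest probe. That probe was at -0.17, -0.16 and -0.47 after 2 Gy, -0.76 and -0.60 after 10 Gy and -0.71, -0.14 and -0.63 after 5x2 Gy. A second bright probe went the other way, at 0.14, 0.35 and 0.25 after 2 Gy, -0.12 and 0.43 after 10 Gy and 0.29, 0.66 and 0.57 after 5x2 Gy. Its 5x2 Gy mean of 0.50 ± 0.12 passed as higher (limma, adjusted p = 0.0093 over 20092 probes). No direction can be given for Vars as a gene.

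Hars, the histidyl-tRNA synthetase, fell by 0.27 ± 0.09 after 5x2 Gy (limma adjusted p = 0.0355), with arrays at -0.25, -0.35 and -0.23. It was at -0.12, -0.19 and -0.40 after 2 Gy and at -0.02 and -0.14 after 10 Gy, so that the 2 Gy and 5x2 Gy arrays overlap. The fall did not pass with median centring, with slide as a block or without any of the 5x2 Gy replicates in turn.

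Only Qars and Wars rose among the cytosolic genes, both after 5x2 Gy. Qars, the glutaminyl-tRNA synthetase of the complex, was at 0.47, 0.53 and 0.45 on the 5x2 Gy arrays, at 0.00, 0.14 and 0.24 on the 2 Gy arrays and at -0.35 and 0.34 on the 10 Gy arrays. The 5x2 Gy arrays thus lie above all others. Their mean was 0.49 ± 0.13 (limma adjusted p = 0.0132), and a second bright probe gave 0.51 ± 0.10, while a dimmer probe was at 0.00 ± 0.13. Wars, the tryptophanyl-tRNA synthetase and an interferon-induced gene, was at 0.25, 0.39 and 0.29 after 5x2 Gy (mean 0.31 ± 0.09, limma adjusted p = 0.0174). It was at -0.07, -0.23 and -0.21 after 2 Gy and at 0.14 and 0.06 after 10 Gy. The order of the regimens in Wars had no overlap, and its second probe gave 0.32 ± 0.08 after 5x2 Gy. With slide as a block, the 5x2 Gy rise of Qars did not pass, and that of Wars did. Neither rise passed with slide as a random block or without any of the 5x2 Gy replicates in turn.

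The other 12 cytosolic genes passed in no regimen. Among them, Nars, which charges asparagine, was at -0.29, -0.28 and -0.37 after 2 Gy, 0.46 and -0.19 after 10 Gy and -0.16, -0.33 and -0.21 after 5x2 Gy. Eprs, the fused glutamyl-prolyl enzyme of the complex, was at -0.46, -0.26 and -0.13, then -0.80 and -0.06, then -0.35, 0.01 and 0.07. Iars, the isoleucyl enzyme, was at -0.06, -0.55 and -0.41, then -0.09 and -0.18, then -0.27, 0.10 and -0.02. Nars lay below 0 on all arrays but 10 Gy replicate 1, and in Eprs and Iars the 5x2 Gy arrays fell on both sides of 0. The rest were Aars, Cars, Farsa, Gars, Kars, Rars, Sars, Tars and Yars, whose regimen means ranged from -0.57 for Sars to 0.29 for Kars, both after 5x2 Gy.

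In the mitochondrial set, Ears2, the glutamyl-tRNA synthetase, was the gene that rose in every regimen. It was at 0.36, 0.20 and 0.51 after 2 Gy, 0.85 and 0.51 after 10 Gy and 0.39, 0.61 and 0.47 after 5x2 Gy. All 8 values lie above 0 and the regimens overlap. The means were 0.36 ± 0.10 (limma adjusted p = 0.0447), 0.68 ± 0.13 (limma adjusted p = 0.00455) and 0.49 ± 0.10 (limma adjusted p = 0.00541). The 2 Gy value sat close to the threshold, and 12 of 22 alternative settings ended its call.

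Tars2, the mitochondrial threonyl enzyme, was at 0.67, 0.40 and 0.62 after 5x2 Gy, above its 2 Gy arrays (0.22, 0.17 and 0.27) and its 10 Gy arrays (0.25 and 0.29), with a 5x2 Gy mean of 0.56 ± 0.09 (limma adjusted p = 0.0014). Its second probe, however, was at -0.27 ± 0.10 after 5x2 Gy (limma, adjusted p = 0.0498 over the probes), so its direction depends on the probe. Cars2, the mitochondrial cysteinyl enzyme, was above 0 on all 8 arrays with its brightest probe, at 0.26, 0.27 and 0.16 after 2 Gy, 0.43 and 0.34 after 10 Gy and 0.31, 0.49 and 0.29 after 5x2 Gy. It rose by 0.39 ± 0.11 after 10 Gy and by 0.36 ± 0.09 after 5x2 Gy (limma adjusted p = 0.0235 and 0.0089). Its second probe was likewise above 0 on the 4 arrays of slide 1, at 0.34, 0.33, 0.25 and 0.34, but below 0 on the 4 of slide 2, at -0.29, -0.42, -0.52 and -0.36. No direction after 5x2 Gy can be given for Tars2 or Cars2 as genes.

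Fars2, the mitochondrial phenylalanyl enzyme, which is a single chain unlike its cytosolic counterpart, rose after 5x2 Gy with arrays at 0.45, 0.49 and 0.57 and a mean of 0.50 ± 0.11 (limma adjusted p = 0.00718). It was at 0.07, 0.22 and 0.17 after 2 Gy and at -0.24 and 0.35 after 10 Gy, all below the 5x2 Gy arrays. Lars2, the mitochondrial leucyl enzyme, had the highest mean of the set, 0.81 ± 0.19 after 5x2 Gy (limma adjusted p = 0.00901), from arrays at 0.28, 1.20 and 0.96. It was at 0.15, -0.02 and 0.30 after 2 Gy and at -0.43 and 0.44 after 10 Gy, and it overlaps between regimens. Its only probe carried a spot flag on all 8 arrays, and 18 of the 34 probes used carried one on at least 1 array. The Lars2 and Fars2 rises did not pass with slide as a block, at 0.37 and 0.21. The slide term of that fit came from the 10 Gy pair alone. For leucine and phenylalanine, then, the cytosolic Lars and Farsb fell and the mitochondrial Lars2 and Fars2 rose after 5x2 Gy, each on its brightest or only probe. Farsa, the other cytosolic phenylalanyl subunit, did not pass. For methionine, the cytosolic Mars (-0.36) and the mitochondrial Mars2 (-0.54) both fell after 5x2 Gy.

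Yars2, the mitochondrial tyrosyl enzyme, fell in all 3 regimens. It was at -0.58, -0.70 and -0.59 after 2 Gy, -0.71 and -0.30 after 10 Gy and -0.16, -0.58 and -0.60 after 5x2 Gy. All 8 values lie below 0, with means of -0.62 ± 0.12, -0.50 ± 0.14 and -0.45 ± 0.12 (limma adjusted p = 0.00856, 0.0282 and 0.0144). Alternative settings ended the 2 Gy call in 4 of 22, the 10 Gy call in 9 of 21 and the 5x2 Gy call in 3 of 22. Iars2, the mitochondrial isoleucyl enzyme, was below 0 on all arrays too, at -0.33, -0.01 and -0.14 after 2 Gy, -1.12 and -0.35 after 10 Gy and -0.21, -0.32 and -0.29 after 5x2 Gy. Its fall passed after 10 Gy (-0.73 ± 0.17, limma adjusted p = 0.011), not without replicate 1, where the value was -0.35. The mitochondrial methionyl and asparaginyl genes Mars2 (-0.54 ± 0.15) and Nars2 (-0.28 ± 0.09) fell after 5x2 Gy (limma adjusted p = 0.0186 and 0.0318). With slide as a block the Mars2 fall did not pass, at -0.09. Neither fall passed without any of the 5x2 Gy replicates in turn. Of 22 alternative settings, 5 ended the Mars2 call and 9 the Nars2 call. The remaining 5, Aars2, Pars2, Rars2, Sars2 and Wars2, passed in no regimen, with means from -0.15 to 0.33. Wars2 was the only gene of the 34 whose probe was not above background in both channels on all arrays (8 untreated, 7 irradiated). It was at -0.24, 0.36 and 0.21 after 2 Gy, -0.55 and 0.34 after 10 Gy and 0.10, 0.26 and 0.18 after 5x2 Gy, with both signs in each single-dose regimen.

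The sets as wholes were then compared. The median of the 20 cytosolic genes was -0.20 after 2 Gy, -0.07 after 10 Gy and -0.26 after 5x2 Gy, and that of the 14 mitochondrial genes 0.13, 0.01 and 0.11, beside medians of all genes of 0.00, -0.06 and -0.02. The mitochondrial median was the higher on each of the 8 arrays, by 0.21, 0.33 and 0.29 on the 2 Gy arrays, 0.05 and 0.52 on the 10 Gy arrays and 0.36, 0.35 and 0.38 on the 5x2 Gy arrays. Above 0 after 5x2 Gy were 4 of 20 cytosolic and 9 of 14 mitochondrial genes. On all 8 arrays, 5 cytosolic genes lay below 0 and none above, whereas 2 mitochondrial genes lay below and 3 above. Over all genes 15.3% lay below and 13.0% above on all 8.

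The gap between the sets depended on the processing. With median centring of the arrays and no loess, the cytosolic median was 0.15 after 2 Gy and 0.28 after 10 Gy, against 0.27 and 0.03 for the mitochondrial one, and the gap turned to -0.08 on 2 Gy replicate 1 and -0.45 on 10 Gy replicate 1. That setting moved the median of all genes to 0.13 after 2 Gy. With slide as a block the 5x2 Gy medians were 0.03 and -0.01, and with the mean of all kept probes of a gene they were -0.18 and 0.00. The direction of the cytosolic median after 2 Gy and 10 Gy, and the gap after 5x2 Gy with slide as a block, were therefore not stable to these choices. The slide term of that block came from the 10 Gy pair alone.

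**Figure D2:**
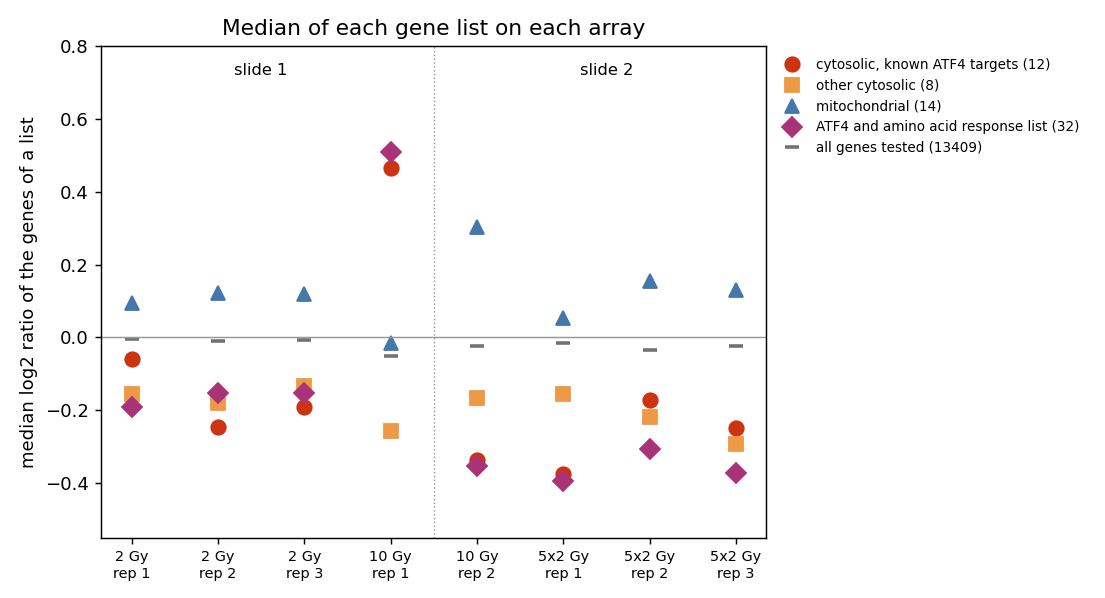
Median log2 ratio (vertical axis) of each gene list on each of the 8 arrays, in the order of the slides, with the number of genes of each list in the legend. The cytosolic ATF4 targets and the ATF4 response list are at 0.46 and 0.51 on 10 Gy replicate 1 and below 0 on all other arrays (above 0 on the 2 Gy arrays with median centring), while the mitochondrial genes are highest, at 0.30, on 10 Gy replicate 2.

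The cytosolic genes listed as known ATF4 targets were split between the 10 Gy arrays in their median, and the cause was not tested. The 12 known ATF4 targets had a median of 0.46 on 10 Gy replicate 1, with 8 of 12 above 0, and of -0.34 on replicate 2, with 1 of 12 above 0. On the 2 Gy arrays the median was -0.06, -0.25 and -0.19, and on the 5x2 Gy arrays -0.37, -0.17 and -0.25, so that replicate 1 of 10 Gy was the only array with a median above 0. Median centring left the split in place, at 0.81 and -0.24, but moved the 2 Gy medians above 0. The other 8 cytosolic genes had medians of -0.26 and -0.17 on the 10 Gy arrays, with none and 3 above 0, and median centring turned these to 0.20 and -0.03. Replicate 1 exceeded replicate 2 in 11 of 12 ATF4 targets, in 3 of 8 other cytosolic genes, in 4 of 14 mitochondrial genes and in 47.6% of all genes. The leukocyte markers moved with the split: over the 3 above background the median was 1.89 on replicate 1 and 0.55 on replicate 2, against 0.10 to 0.46 after 2 Gy and 0.37 to 0.47 after 5x2 Gy. Cd68 and Lyz2 rose after 10 Gy, Cd3e was at -0.26 and -0.02 on the pair and Ptprc was not above background, and their part in the result was not tested.

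The seryl enzyme gene Sars, whose promoter did not hold the motif, differed most, at 0.46 on replicate 1 and -1.05 on replicate 2. Its 2 Gy arrays were at -0.06, -0.07 and -0.32 and its 5x2 Gy arrays at -0.70, -0.44 and -0.57, which no 2 Gy array reached. The alanyl enzyme gene Aars, the promoter of which holds the motif in 2 places, was at 0.52 and -0.63, with 2 Gy arrays at -0.06, -0.44 and -0.17 and 5x2 Gy arrays at -0.73, -0.05 and -0.44. In both genes 10 Gy replicate 2 lay among or below the 5x2 Gy arrays of its slide, and replicate 1 above all other arrays.

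The tyrosyl gene Yars was at 0.59 and -0.43, the cysteinyl gene Cars at 0.50 and -0.43, and the threonyl gene Tars at 0.55 and -0.24. The glycyl gene Gars was at 0.57 and -0.17 and Nars at 0.46 and -0.19. Cars was at 0.18, -0.12 and -0.02 after 2 Gy and at -0.57, -0.25 and -0.37 after 5x2 Gy, and Tars at -0.01, -0.38 and -0.05 and at -0.07, -0.04 and 0.03. All of these genes had opposite signs on the 10 Gy pair, and each was higher on replicate 1 than on any other array. Of the 5 genes with the motif, the brightest probe of Iars was the exception, at -0.09 and -0.18. Lars, Mars and Eprs, also listed as ATF4 targets, were below 0 on both arrays, and Wars was above 0 on both. Eprs went the other way, lower on replicate 1 (-0.80) than on replicate 2 (-0.06).

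The second brightest probes of these genes moved likewise in Aars (0.67 and -0.48), Cars (0.80 and -0.49) and Tars (0.42 and -0.44), and the second Iars probe was at 0.50 and 0.25. Over the 13 kept probes of the ATF4 targets that were not used, replicate 1 was the higher in 8 and the median difference was 0.25, against 0.69 over the 12 used. Among unused probes of other cytosolic genes it was the higher in 1 of 7, with a median difference of -0.48. Among those of mitochondrial genes it was the higher in 4 of 4, with a median of 0.39, and the Wars2 probes among them were near background. The contrast with the mitochondrial genes thus depended on the probe. With 1 array in each state, the difference between the arrays has no replicate check, and slide cannot be told apart from replicate. None of Sars, Aars, Yars, Cars, Tars, Gars and Nars passed the 10 Gy test, in which the 2 arrays are averaged.

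**Figure D3:**
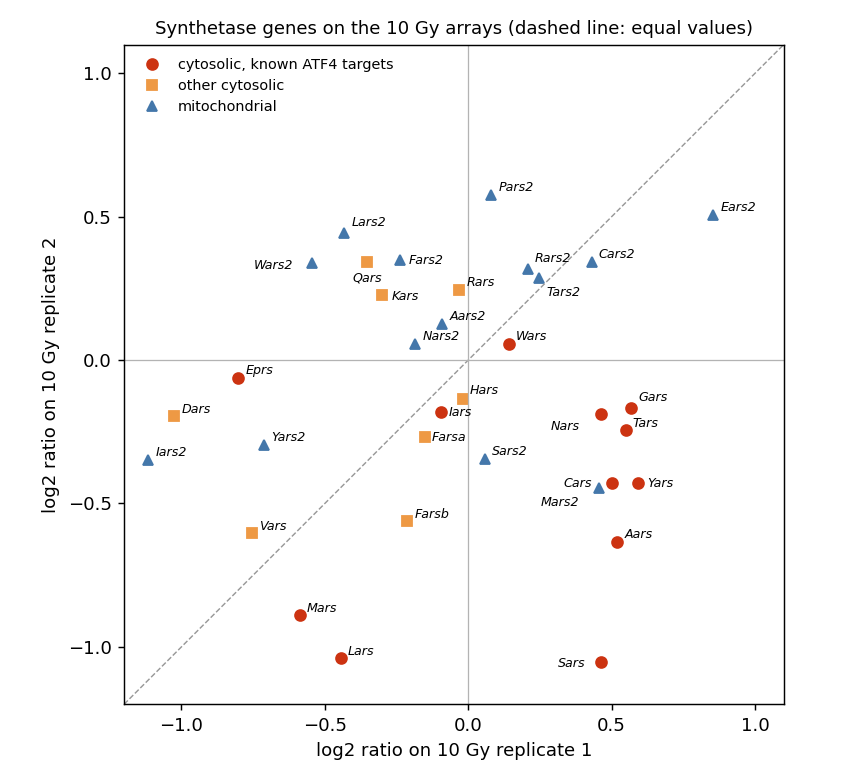
Log2 ratio of each of the 34 synthetase genes on 10 Gy replicate 1 (horizontal) and replicate 2 (vertical), with the dashed line at equal values; red circles are cytosolic known ATF4 targets, orange squares other cytosolic genes and blue triangles mitochondrial genes. A group of 7 ATF4 targets and the mitochondrial Mars2 lie between 0.45 and 0.59 on replicate 1 and between -1.05 and -0.17 on replicate 2, and Ears2 is highest on the horizontal axis.

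Other genes of the amino acid response followed the same split. Of 32 such genes that are not synthetases, 28 were higher on 10 Gy replicate 1 than on replicate 2, with medians of 0.51 and -0.35 and 26 and 8 genes above 0. Atf4 itself was at 0.38 and -0.80 on the pair, at -0.43, -0.43 and -0.44 after 2 Gy and at -0.93, -0.96 and -1.07 after 5x2 Gy (mean -0.98 ± 0.18, limma adjusted p = 0.00243). ATF4's own control is largely translational, so its mRNA is only part of its regulation. Asns, the asparagine synthetase gene and a classical ATF4 target, was at 0.50 and -1.47 on the 10 Gy pair and at -1.23, -1.15 and -1.50 after 5x2 Gy (mean -1.29 ± 0.28, limma adjusted p = 0.00583).

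Trib3, a pseudokinase of this response, was at 0.99 and -2.04 and fell after 5x2 Gy (-1.54 ± 0.42, limma adjusted p = 0.0172). Ddit3, the transcription factor CHOP, was at 1.44 and -0.25 and did not pass in any regimen. Cth, the cystathionine gamma-lyase gene, and Psat1, of serine synthesis, fell after 5x2 Gy by 1.63 ± 0.17 and 1.07 ± 0.17 (limma adjusted p = 0.000285 and 0.00162). Of the 32 genes, 11 fell and 5 rose after 5x2 Gy, 1 fell and 5 rose after 10 Gy, and 4 fell and 3 rose after 2 Gy (16, 6 and 7 of 32, against 41.0%, 28.2% and 16.9% of all genes). Sesn2 and Ddit4, brakes on mTORC1 that p53 also controls, were above 0 on all 8 arrays and reached 3.24 and 2.78 on 10 Gy replicate 1.

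The regimens were also compared with each other. Between 10 Gy and 2 Gy, 1 synthetase gene passed, Mars, among 2.56% of all genes (1.04% higher and 1.52% lower). The difference was -0.75 ± 0.14 (limma adjusted p = 0.0385), lower on 2 of 2 arrays of 10 Gy. Within slide 1 the 10 Gy array at -0.59 lay below the 2 Gy arrays at 0.06, 0.01 and -0.05. On the second Mars probe the same array, at -0.41, lay among the 2 Gy arrays at 0.12, -0.47 and -0.36. The call was lost with the second probe averaged in, and without any 1 of the 2 Gy or 5x2 Gy replicates. The count was 0 without any of those 6 arrays, among 0 to 0.0373% of all genes, 3 without 10 Gy replicate 1 (11.2%) and 13 without 10 Gy replicate 2 (32.1%).

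Between 5x2 Gy and 2 Gy none of the 34 passed in limma, among 1.31% of all genes (0.380% higher and 0.925% lower), and 6 had an unadjusted p under 0.05 (Lars, Mars, Rars, Wars, Lars2 and Tars2), a share of 17.6% against 25.6% of all genes. Without either 10 Gy array, or without both, 11 passed, among 29.9% of all genes. The 5x2 Gy arrays were all higher than the 2 Gy arrays in 7 genes (Qars, Rars, Wars, Cars2, Fars2, Pars2 and Tars2), against 21.1% of all genes. They were all lower in 7 genes (Cars, Dars, Lars, Mars, Sars, Mars2 and Rars2), against 25.9%. No slide held both regimens, so slide and regimen cannot be told apart in this contrast.

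Between 5x2 Gy and 10 Gy, the same total dose with and without fractions, no synthetase gene passed in limma, where 0 of all genes did. An unadjusted p under 0.05 was found for 5 synthetase genes (Mars, Qars, Fars2, Lars2 and Mars2), 14.7% against 16.7% of all genes. Without 10 Gy replicate 2 the count was 15, among 43.2% of all genes, and it was 0 without 10 Gy replicate 1. Within slide 2, 10 Gy replicate 2 lay below the 5x2 Gy arrays in Mars (-0.89 against -0.43 to -0.31), Qars (0.34 against 0.45 to 0.53) and Fars2 (0.35 against 0.45 to 0.57). It lay above them in Mars2 (-0.45 against -0.55 to -0.54) and among them in Lars2 (0.44 against 0.28 to 1.20). The 5x2 Gy arrays were all higher than both 10 Gy arrays in 6 genes and all lower in 4, against 15.5% and 14.5% of all genes.

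Several genes had more than 1 usable probe, which allowed the measurements themselves to be compared. The array carried 70 probes for the 34 genes, of which 58 were above background in a channel on at least 2 arrays, and 15 genes had several. The mean log2 ratios of a gene's probes had opposite signs in at least 1 regimen in 13 of these 15 genes, in 9 after 2 Gy, 6 after 10 Gy and 9 after 5x2 Gy. Dars and Wars had the same sign on all their probes in every regimen. The 13 include Aars, whose brightest probe was at -0.41 ± 0.20 after 5x2 Gy while 2 others were at 0.18 ± 0.19 and 0.16 ± 0.18, and Wars2, at 0.18 ± 0.16 on its brightest probe and at -0.41 ± 0.11 and -0.60 ± 0.08 on others. In Aars none of the 3 differed from 0 beyond the test, whereas both other Wars2 probes passed as lower (limma, adjusted p = 0.015 and 0.00077 over the probes). These Wars2 probes were near background, above it on 3 and 8 untreated but on 0 and 1 irradiated arrays. Near background too were the third Aars probe (1 untreated and 1 irradiated array), a Farsa probe (2 and 1) and a Qars probe (2 and 0). Where the probes lie on the transcripts is not given in the sources used here.

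**Figure D4:**
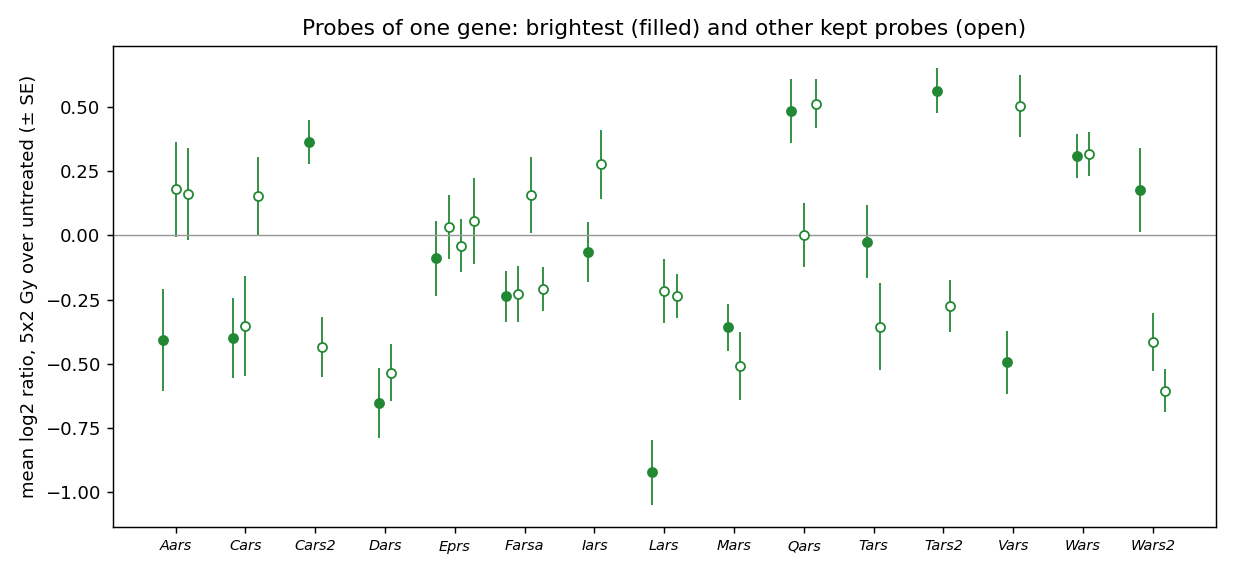
Mean log2 ratio after 5x2 Gy ± SE from limma (vertical axis, n = 3 arrays) of every kept probe of the 15 synthetase genes with several, the brightest probe filled and the others open. The probes of Dars, Lars, Mars, Qars, Tars and Wars lie on one side of 0. Those of Farsa, Vars, Cars2, Tars2 and Wars2 include values on both sides beyond their SE. The Farsa probe above 0 and the Wars2 probes below 0 were near background.

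The members of the multisynthetase complex (Eprs, Iars, Lars, Qars, Mars, Kars, Rars and Dars) had medians of -0.22, -0.29 and -0.08 after 2 Gy, 10 Gy and 5x2 Gy. After 5x2 Gy 3 of the 8 fell (Dars, Lars and Mars) and Qars rose, 4 of the 8 in all, against 41.0% of all genes (17.6% higher and 23.4% lower). Of its 3 scaffold proteins, Eef1e1, known as AIMP3 or p18, fell in every regimen. It was at -0.85, -1.46 and -1.19 after 2 Gy, -0.87 and -0.91 after 10 Gy and -0.85, -1.12 and -1.22 after 5x2 Gy. The values overlap between regimens and none is above -0.85. The means were -1.17 ± 0.12, -0.89 ± 0.15 and -1.07 ± 0.12 (limma adjusted p = 0.00127, 0.0029 and 0.000388). Aimp1 and Aimp2 did not pass, with means from -0.09 to 0.15.

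The mitochondrial charging genes outside the 34 include Qrsl1 and Gatc, subunits of the amidotransferase that makes glutaminyl-tRNA in mitochondria from the product of Ears2. Both fell after 10 Gy (-0.47 ± 0.12 and -0.46 ± 0.13) and after 5x2 Gy (-0.53 ± 0.10 and -0.51 ± 0.10, limma adjusted p = 0.00338 and 0.00443), while Ears2 rose. Gatb, a further subunit, did not pass, at -0.05 ± 0.14 after 10 Gy and 0.09 ± 0.12 after 5x2 Gy. Qrsl1 was at -0.28, -0.34 and -0.24 after 2 Gy, -0.25 and -0.69 after 10 Gy and -0.49, -0.47 and -0.63 after 5x2 Gy. Of 7 such genes, Qrsl1 and Gatc passed, or 28.6% against 28.2% of all genes after 10 Gy and 41.0% after 5x2 Gy. None passed after 2 Gy. The mitochondrial valyl gene Vars2 did not pass, at -0.24 ± 0.11 after 5x2 Gy.

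Of 37 genes of tRNA export, processing and delivery, 35 were above background. After 2 Gy 9 fell and 2 rose, after 10 Gy 5 fell and 2 rose, and after 5x2 Gy 8 fell and 3 rose, or 31.4%, 20.0% and 31.4% of the 35, against 16.9%, 28.2% and 41.0% of all genes. Trnt1, which adds the CCA end that a synthetase charges, fell in every regimen, by 0.78 ± 0.14, 1.05 ± 0.18 and 1.04 ± 0.14 (limma adjusted p = 0.00801, 0.00266 and 0.000758), with all 8 arrays between -1.37 and -0.53. The tRNA pseudouridine synthase gene Pus7 fell likewise, by 0.65 ± 0.09, 0.90 ± 0.10 and 0.58 ± 0.09 (limma adjusted p = 0.00243, 0.00057 and 0.001). Rpp38, of RNase P, fell after 5x2 Gy by 0.90 ± 0.12, and Tsfm, the mitochondrial elongation factor Ts, by 0.60 ± 0.08 (limma adjusted p = 0.000627 and 0.000713).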

How the data were processed

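Per the file headers, the authors deposited the intensity of every spot in both channels, quantified with ImaGene 9.0 and neither background-corrected nor normalized. No spot was left out for its flag, as no source explains the flags. The deposited series matrix, used as an alternative, holds log2 ratios; set against loess ratios of the same arrays its columns gave r of 0.998 to 1.000, which settles scale and direction (Cy5 over Cy3), with column medians of -0.005 to 0.009. The files' genome build is not given in the sources used here.

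Mean intensities were corrected with normexp (offset 50) and normalized by loess within arrays in limma 3.58.1 (R 4.3.3). A probe was kept if it exceeded the median of the negative controls by 2.6 robust SD in a channel on at least 2 arrays. Symbols were updated through RefSeq accessions (27903 of 41174 probes matched), and the brightest kept probe stood for a gene. The fit (lmFit, eBayes without trend) had 1 mean per regimen over all 8 arrays and was tested on simulated data. The Benjamini-Hochberg adjustment ran over all 13409 genes within each comparison. Precision is limited by the number of arrays.

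The synthetase genes, the other lists and the promoter motif were chosen with earlier results of these data known. Values on every array are given for the 12 cytosolic and 6 mitochondrial genes with the smallest p of a moderated F test and for genes whose probes disagree in sign. Of other lists up to 4 genes are named, with Atf4, Ddit3, Trib3 and Asns always, and further genes were named after their values were seen. Alternatives covered background, normalization, filter, probe choice, slide, replicate number, array weights and each array left out. The result of 1 gene outside the 34 is not reported here.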

Additional observations from a re-analysis of the deposited data

Results flagged for a closer look

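Mars differed between 10 Gy and 2 Gy by a direct test of the difference, at -0.75 ± 0.14 (limma, Benjamini-Hochberg adjusted p = 0.0385, lower on 2 of 2 arrays of 10 Gy), and 10 of 20 alternative settings ended that call. Among the amino acid response genes, Ddit4, an inhibitor of mTORC1, differed in the same contrast by 1.46 ± 0.30 (limma adjusted p = 0.0419), with 10 Gy arrays at 2.78 and 1.52 above 2 Gy arrays at 0.49, 0.82 and 0.76. On the brightest probe of each gene both 10 Gy arrays lay outside the 2 Gy range. Of all 13409 genes, 1881 had both 10 Gy arrays above every 2 Gy array, and 2439 had both below. Such separation alone therefore does not single out either gene. On the second Mars probe 10 Gy replicate 1, at -0.41, lay within the 2 Gy range of -0.47 to 0.12.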

How the results depend on the processing

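Of 30 calls of single genes, 28 passed with normexp offset 0, 30 without background correction and 30 without the filter on dim probes, 28 in the deposited series matrix, 25 with scaling between arrays, and 23 and 5 with slide as a block and a random block, for the latter of which the correlation within slides was 0.70. The signs that reversed did so with the probe: Vars after 5x2 Gy was at 0.0048 as the mean of its probes and at 0.50 on its other probe, Cars2 at -0.035 and -0.43, Tars2 at -0.27 on its other probe, Vars after 10 Gy at 0.16 and Lars after 2 Gy at 0.25. After 2 Gy, 7 synthetase genes passed with median centring, 12 with scaling, 2 with median pixel signals, 14 and 0 with slide as a block and a random block, 18 with array weights, 11 with the regimen fitted alone, 13 without either 10 Gy array, and 0 to 13 with 1 array left out. After 10 Gy these counts were 5 with median pixels, 14 and 3 with slide as a block and a random block, 0 with array weights and 0 alone, and 7 to 18 with 1 array left out. After 5x2 Gy they were 1 with the random block, 26 with array weights, 25 alone, 25 without either 10 Gy array, and 6 to 25 with 1 array left out. Between 10 Gy and 2 Gy they were 0 with scaling, 0 with the mean of the probes, 13 and 6 with slide as a block and a random block, 0 with array weights, and 0 to 13 with 1 array left out. Between 5x2 Gy and 2 Gy they were 1 with median centring and 1 with scaling, 7 and 1 with the slide blocks, 15 with array weights, 11 without either 10 Gy array, and 0 to 11 with 1 array left out. Between 5x2 Gy and 10 Gy they were 0 to 15 with 1 array left out. The share of all genes called moved alike: after 2 Gy it was 26.9% with median centring, 36.6% with scaling, 14.3% with median pixels, 33.3% and 0.157% with the slide blocks and 54.3% with array weights. After 10 Gy it was 24.1% with median pixels, 48.6% and 10.9% with the slide blocks and 1.66% with array weights, and after 5x2 Gy 6.09% with the random block and 66.8% with array weights. The setting without either 10 Gy array and the other probes were chosen after seeing the data, and the causes were not tested.

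Replicate numbers did not pair the arrays: deviations of same-numbered arrays from their regimen means correlated at -0.24 to 0.11. With the replicate block 2, 5 and 14 genes passed after 2 Gy, 10 Gy and 5x2 Gy and 0 between 10 Gy and 2 Gy.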
